A study of Mus musculus with 12 samples.

Results

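The insulin-like growth factor (IGF) axis was followed through 10 genes of the 55471 in the count table: the binding proteins *Igfbp2*, *Igfbp3*, *Igfbp4*, *Igfbp5*, *Igfbp6* and *Igfbp7*, the ligands *Igf1* and *Igf2*, and the receptors *Igf1r* and *Igf2r*. The genes were chosen by symbol as a family, and the family was selected because *Igfbp2* showed the largest rise of the well-measured genes in the comparison described here. The differences between the groups are therefore given for these 10 genes as a description, with no p-value. Whether a member met the call rule applied to every gene is stated to place it among all genes, and is no test of the member. The other genes of the pathway were tested, from lists compiled with earlier results of these data known.

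The libraries came from primary hippocampal neurons of wild-type CD1 mouse embryos of mixed sex, grown in Neurobasal medium with B27. At day in vitro (DIV) 7, 1 group received a negative control gapmer and the other a gapmer against the long non-coding RNA *Neuid* (Gm10419), both in lipid nanoparticles, and RNA was collected at DIV 10, which is 72 h later. A gapmer is a short antisense oligonucleotide that directs RNase H to cut the RNA it pairs with, so the *Neuid* knockdown (KD) cultures carry a partial loss of the transcript in genetically unaltered cells. Total RNA-seq was done on 6 control and 6 *Neuid* KD libraries, and the comparison asks how loss of *Neuid* changes gene expression. Nothing in the labels says that the 6 libraries of a group came from separate cultures, so standard errors and p-values measure the spread between these libraries.

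*Neuid* itself had a level of 28.4 ± 2.03 CPM (reads on a gene scaled to the size of the library; SD, n = 6) in control and of 8.05 ± 1.13 CPM (SD, n = 6) in *Neuid* KD libraries. Its log2 fold change was -1.81 with a standard error (SE) of 0.0845 (adjusted p = 1.3e-10, edgeR quasi-likelihood test), and the groups did not overlap. Between 18002585 and 30914714 reads were counted on genes in the control libraries and between 11152556 and 30573480 in the *Neuid* KD libraries. The libraries differed in reads on chemosensory receptor genes, which neurons in culture are not known to use and which were taken as a measure of background: 7 libraries (4 control, 3 *Neuid* KD) held at least 100 CPM on 1780 such genes and 5 (2 control, 3 *Neuid* KD) held less, over a range of 26.0 to 653 CPM. *Neuid* KD replicate 1 was the smallest library and stood apart from its group in several genes, so that values without it are also given for the genes it set apart. Neuronal markers were abundant in both groups (*Map2*, a dendritic microtubule protein, at 2630 CPM in control). Astrocyte markers covered a wide range of levels. In control the highest of them was *Slc1a2*, a glutamate transporter, with 1180 CPM. *Gfap*, *Aqp4*, *Fgfr3* and *Ntsr2* of the same list averaged 140, 32.6, 16.3 and 4.96 CPM there.

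IGF1 and IGF2 are secreted growth factors. Both signal through the tyrosine kinase receptor IGF1R, which recruits insulin receptor substrates and activates the PI3K-AKT-mTOR cascade, whereas IGF2R, the cation-independent mannose 6-phosphate receptor, takes IGF2 up for degradation. The IGF-binding proteins hold the ligands outside the cell: they prolong their life, restrict or deliver them to the receptor, and are cleaved by proteases that release the ligand. In the developing brain the axis supports neuronal survival, neurite growth and glial proliferation, and neurons and astrocytes make different binding proteins.

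Promoters were taken from RefSeq on GRCm38.p6, the assembly also called mm10, where all 10 members had an entry and the alternative starts of *Igfbp2* and *Igf2* brought the number to 14. The 250 bases before the transcription start are shown for 5 members: *Igfbp2*, *Igfbp4* and *Igf1r*, the 3 well-measured members that were higher in *Neuid* KD, *Igfbp3*, whose groups separated in the other direction, and *Igfbp5*, the neighbour of *Igfbp2* on chromosome 1 whose level overlapped between the groups. They are written 5′ to 3′ on the strand of the gene, with each E-box, CANNTG, in capitals. E-boxes are the letters that basic helix-loop-helix factors bind.
*Igfbp2* (chr1:72824230-72824479, + strand): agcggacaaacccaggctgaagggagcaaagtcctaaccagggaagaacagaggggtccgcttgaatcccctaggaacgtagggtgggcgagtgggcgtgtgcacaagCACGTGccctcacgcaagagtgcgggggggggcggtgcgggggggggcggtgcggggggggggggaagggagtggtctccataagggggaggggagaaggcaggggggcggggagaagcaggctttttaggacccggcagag
*Igfbp4* (chr11:99040994-99041243, + strand): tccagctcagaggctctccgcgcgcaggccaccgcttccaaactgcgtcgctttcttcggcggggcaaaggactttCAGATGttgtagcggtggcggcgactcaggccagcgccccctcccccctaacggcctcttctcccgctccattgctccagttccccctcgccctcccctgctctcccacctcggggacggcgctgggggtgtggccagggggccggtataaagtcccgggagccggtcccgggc
*Igf1r* (chr7:67952007-67952256, + strand): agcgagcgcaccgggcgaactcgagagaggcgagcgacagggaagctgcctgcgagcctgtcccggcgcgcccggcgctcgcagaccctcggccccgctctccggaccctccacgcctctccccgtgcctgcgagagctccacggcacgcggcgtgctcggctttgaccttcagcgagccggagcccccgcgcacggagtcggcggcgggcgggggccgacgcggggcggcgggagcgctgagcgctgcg
*Igfbp3* (chr11:7213924-7214173, - strand): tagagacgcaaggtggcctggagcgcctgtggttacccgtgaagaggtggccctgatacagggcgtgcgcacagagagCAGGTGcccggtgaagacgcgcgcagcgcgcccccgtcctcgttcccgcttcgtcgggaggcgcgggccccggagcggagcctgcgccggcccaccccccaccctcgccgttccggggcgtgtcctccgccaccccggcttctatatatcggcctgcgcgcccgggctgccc
*Igfbp5* (chr1:72874866-72875115, - strand): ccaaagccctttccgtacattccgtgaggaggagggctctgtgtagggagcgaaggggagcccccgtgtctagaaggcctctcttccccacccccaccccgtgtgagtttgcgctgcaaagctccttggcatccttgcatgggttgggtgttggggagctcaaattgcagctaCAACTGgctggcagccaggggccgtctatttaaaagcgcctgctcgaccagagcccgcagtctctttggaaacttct

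Each of the 4 *Igfbp* promoters shown held 1 E-box, which reads as CACGTG in *Igfbp2*, CAGATG in *Igfbp4*, CAGGTG in *Igfbp3* and CAACTG in *Igfbp5*. The *Igf1r* promoter held 0, and 66.2% of the 32851 promoters of 27025 genes held at least 1. GC boxes (GGGCGG on both strands), the letters bound by Sp1, numbered 3 in *Igfbp2* and 2 in *Igf1r* and 0 in the other promoters shown, with 32.7% of all promoters holding at least 1. The promoter at the other start of *Igfbp2* (chr1:72825137-72825386), not shown, differed: it held 1 E-box, CATTTG, and 0 GC boxes. The ETS core CCGGAA, on both strands, was found in *Igfbp3* of these 5 (12.0% of all promoters), and the TCF core CTTTGA, on both strands, in *Igf1r* (13.8% of all promoters). No match of these motifs overlapped an E-box. A match describes letters only.

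Among the binding proteins, *Igfbp2* (ENSMUSG00000039323, chromosome 1, 72824503 to 72852474, + strand) carried the largest difference. IGFBP2 binds both ligands and, through an integrin-binding motif and a heparin-binding region, attaches to the cell surface and to PTPRZ1. In control replicates 1 to 6 its level was 14.4, 14.3, 13.5, 15.7, 15.8 and 12.2 CPM, and in *Neuid* KD replicates 1 to 6 it was 112, 96.6, 98.1, 101, 94.4 and 97.2 CPM. The groups were far apart, and the spread was narrow in both groups, with a coefficient of variation of 9.53% in control and 6.44% in *Neuid* KD. The mean was 7.00-fold higher, with 14.3 ± 1.36 CPM for control and 100 ± 6.44 CPM for *Neuid* KD (SD, n = 6 each), and the log2 fold change was 2.81 (SE 0.0662). Without *Neuid* KD replicate 1, the highest library, it was 2.73. This placed *Igfbp2* at rank 1 of 15205 tested genes that averaged at least 1 CPM. The next among those whose groups did not overlap were *S100b*, a calcium-binding protein of astrocytes, at 2.64 and *Rgcc*, a cell cycle regulator, at 2.62.

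*Igfbp5*, which encodes the most conserved binding protein, lies next to *Igfbp2* (72857932 to 72874884, - strand) with 5457 bases between their 3′ ends. It was at 86.7 to 109 CPM in control (median 101) and at 81.1 to 104 CPM in *Neuid* KD (median 98.9). The groups overlapped, the log2 fold change was -0.05 (SE 0.0643), and the lowest library was *Neuid* KD replicate 1, without which the value was again -0.05. Within 500 kb of *Igfbp2*, 5 other genes were tested, with log2 fold changes from -0.12 to 0.11. By edgeR 0 of these 5 passed the threshold used throughout, an adjusted p under 0.05 with a log2 fold change beyond 0.5 in size (1 at an unadjusted p under 0.05, 0 by DESeq2). The difference at *Igfbp2* was thus not shared by the genes around it.

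*Igfbp4* (chromosome 11, 99041244 to 99054392, + strand) encodes a binding protein known mainly as an inhibitor of IGF action until PAPPA cleaves it. Its level was 63.0, 77.6, 78.6, 71.3, 81.8 and 68.8 CPM in control replicates 1 to 6 and 118, 134, 126, 132, 125 and 122 CPM in *Neuid* KD replicates 1 to 6. The groups did not overlap, and the mean was 1.72-fold higher in *Neuid* KD. The log2 fold change was 0.78 (SE 0.0618). In reads this was a change from 10221 over the control libraries to 16713 over the *Neuid* KD libraries, so that counting error was small.

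*Igfbp3* (chromosome 11, 7206086 to 7213923, - strand), which in serum carries most IGF as a ternary complex, went the other way. Its level was 150, 148, 155, 145, 158 and 155 CPM in control replicates 1 to 6 and 107, 118, 125, 116, 112 and 109 CPM in *Neuid* KD replicates 1 to 6. The highest *Neuid* KD library lay below the lowest control library, in a gene whose control libraries varied by 3.19%. The log2 fold change was -0.41 (SE 0.0477), short of the fold threshold, so *Igfbp3* was not among the calls. *Igfbp2*, *Igfbp4* and *Igfbp3* were each measured with at least 269 reads in every library.

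*Igfbp7* (chromosome 5, 77349240 to 77408041, - strand) encodes a secreted protein that binds IGFs weakly and is known from blood vessels and senescent cells. It was low, at 0.362 to 1.16 CPM in control (median 0.598) and 1.22 to 2.67 CPM in *Neuid* KD (median 1.65), or 8 to 51 reads a library. The groups did not overlap, but the lowest *Neuid* KD library and the highest control library lay close together. The log2 fold change was 1.33 (SE 0.352), and the call was lost within either background class, without the filter on low counts, with offsets for GC content and length, and without control replicate 6 or *Neuid* KD replicate 4, 5 or 6. The value stayed between 1.13 and 1.55 in all alternatives run. The gene overlaps *Polr2b* on the opposite strand, which held 1060 to 2960 reads a library with a log2 fold change of 0.06 (adjusted p = 0.66 by edgeR). The strand setting of the counting is not given in the sources used here. *Igfbp6* (chromosome 15, 102144362 to 102149511, + strand), a binding protein that prefers IGF2, had 0 to 16 reads a library, 45 in all control libraries and 52 in all *Neuid* KD libraries. It did not pass the filter and no fold is given. In the 1 library with 0 reads, *Neuid* KD replicate 2, a level of up to 0.116 CPM is allowed by counting error.

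**Figure D1:**
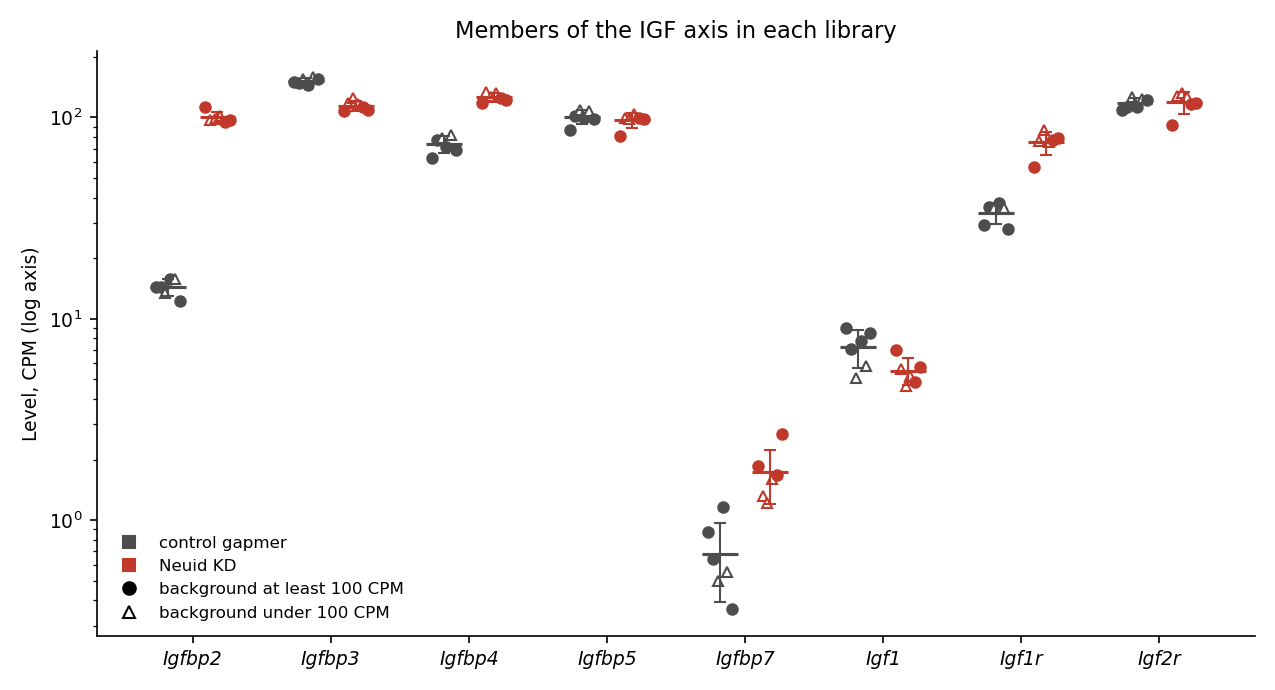
Level of the 8 tested members in CPM on a log axis, 1 point per library, with control in grey and *Neuid* KD in red, horizontal lines at the group mean and bars of 1 SD (n = 6). Circles are libraries with at least 100 CPM of background and triangles those with less. *Igfbp2* separates from 12.2 to 15.8 CPM in control to 94.4 to 112 CPM in *Neuid* KD, and *Igfbp4*, *Igfbp7* and *Igf1r* also separate upward, *Igfbp3* downward.

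Of the ligands, *Igf1* (chromosome 10, 87858265 to 87937042, + strand) was detected at a low level. It was at 9.03, 7.05, 5.07, 7.79, 5.83 and 8.54 CPM in control replicates 1 to 6 and at 6.99, 5.66, 4.63, 5.21, 4.88 and 5.76 CPM in *Neuid* KD replicates 1 to 6. The groups overlapped, and in control the 2 libraries with background under 100 CPM were the lowest 2 of the 6. The log2 fold change was -0.39 (SE 0.142) and did not pass the threshold. Without *Neuid* KD replicate 1 it was -0.50 and passed, and within the libraries of background under 100 CPM it was -0.10 (SE 0.178). *Igf2* (chromosome 7, 142650766 to 142666816, - strand), the imprinted fetal ligand, had 0 to 7 reads a library, with 11 in all control and 18 in all *Neuid* KD libraries, and was not tested. Control replicate 6 and *Neuid* KD replicate 4 had 0 reads, which allows up to 0.135 and 0.105 CPM. At this depth a difference in *Igf2* was not detectable.

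Of the receptors, *Igf1r* (chromosome 7, 67952827 to 68233668, + strand), the signalling receptor of both ligands, was higher in *Neuid* KD. Its level was 29.3, 35.9, 35.3, 37.6, 35.4 and 28 CPM in control replicates 1 to 6 and 56.8, 76.2, 86.4, 75.7, 77.1 and 78.8 CPM in *Neuid* KD replicates 1 to 6. The groups did not overlap, with *Neuid* KD replicate 1 nearest to control. The mean rose 2.24-fold, and the log2 fold change was 1.17 (SE 0.0909), or 1.19 without that library. *Igf2r* (chromosome 17, 12682406 to 12769664, - strand), the scavenging receptor of IGF2, was at 109 to 126 CPM in control (median 117) and 91.5 to 132 CPM in *Neuid* KD (median 122). Its groups overlapped, and the log2 fold change was 0.02 (SE 0.0742). The antisense RNA *Airn*, which overlaps *Igf2r* and silences its paternal copy in many tissues, held 66 to 197 reads a library with a log2 fold change of 0.47 (adjusted p = 0.013 by edgeR), below the fold threshold.

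In sum, 8 of the 10 members passed the filter on low counts, and 4 of them, *Igfbp2*, *Igfbp4*, *Igfbp7* and *Igf1r*, passed the threshold upward, a rule that 2.44% of the 19578 tested genes met. Downward 0 passed by edgeR and 0 by DESeq2, beside 0.792% of all tested genes, with 2 members (*Igfbp3* and *Igf1*) under 0 at an unadjusted p under 0.05. The groups separated upward for the same 4 members, as for 4.13% of all tested genes, and downward for *Igfbp3*, as for 1.57%. The median log2 fold change was 0.40 over the 8 members and -0.03 over all tested genes. Since this comparison chose the family, nothing is read from these shares.

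Whether the differences depended on background was tested, since that contrast played no part in the choice of the genes. In the 7 libraries with at least 100 CPM of background the log2 fold change of *Igfbp2* was 2.85 (SE 0.102), and in the 5 with less it was 2.73 (SE 0.0701). The values of *Igfbp4* were 0.80 (SE 0.0971) and 0.68 (SE 0.0474), and those of *Igf1r* 1.13 (SE 0.108) and 1.14 (SE 0.066). *Igfbp3* was at -0.44 (SE 0.0975) and -0.42 (SE 0.0451). The groups of these 4 genes did not overlap over all libraries, so the same direction in both classes follows from that and is no further result. The widest gap was that of *Igf1*, at -0.48 (SE 0.158) and -0.10 (SE 0.178), with an interaction of 0.42 on the log2 scale (SE 0.236, unadjusted p = 0.0854, adjusted p = 1.0, edgeR quasi-likelihood test). By edgeR the interaction passed an adjusted p of 0.05 in 0 of the 8 members (0 at an unadjusted p under 0.05, and 0 by DESeq2), beside 0.0% of all tested genes.

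**Figure D2:**
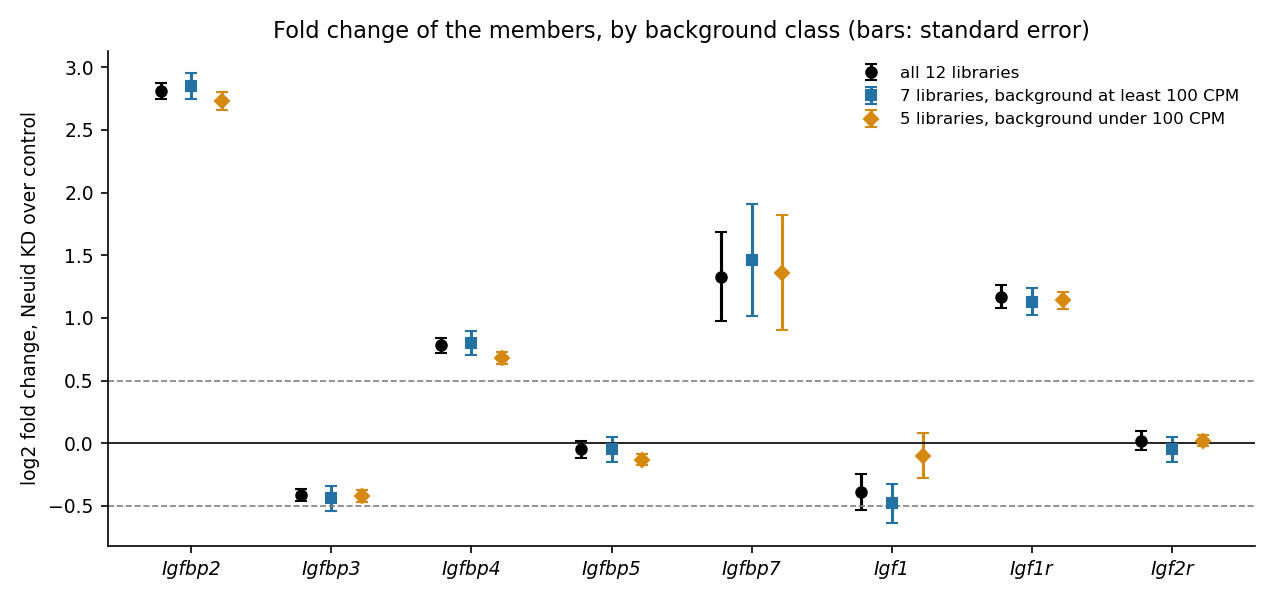
Log2 fold change of *Neuid* KD over control (vertical axis) for the 8 tested members, with bars of 1 SE, for all 12 libraries (black circles), the 7 with at least 100 CPM of background (blue squares) and the 5 with less (orange diamonds). Dashed lines mark 0.5 and -0.5. The 3 values of *Igfbp2* lie between 2.73 and 2.85, while those of *Igf1* run from -0.48 to -0.10.

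Levels were compared between genes per kilobase (kb) of exon. In control the order was *Igfbp3* (48.6 ± 1.55 CPM per kb, SD, n = 6), *Igfbp5* (16.7 ± 1.30), *Igfbp4* (16.6 ± 1.60), *Igf2r* (12.6 ± 0.754), *Igfbp2* (7.74 ± 0.738), *Igf1r* (2.00 ± 0.234), *Igf1* (0.729 ± 0.156), *Igfbp7* (0.565 ± 0.240), *Igfbp6* (0.303 ± 0.165) and *Igf2* (0.0146 ± 0.0132). The control ranges of neighbours overlapped for *Igfbp5* and *Igfbp4*, for *Igf1* and *Igfbp7*, and for *Igfbp7* and *Igfbp6*, and the other neighbours were apart. In *Neuid* KD *Igfbp2* moved from rank 5 to rank 1 at 54.1 ± 3.49 CPM per kb, above *Igfbp3* at 36.6 ± 2.13 and *Igfbp4* at 28.6 ± 1.36. The receptors kept a lower level per length, with *Igf2r* at 12.8 ± 1.57 and *Igf1r* at 4.48 ± 0.583 CPM per kb.

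The makeup of the binding protein transcripts changed with these levels. The sum over the 6 *Igfbp* genes was 90.6 ± 3.64 CPM per kb in control and 137 ± 2.78 in *Neuid* KD (SD, n = 6 each), 1.52-fold higher, and the ranges of 85.7 to 96.0 and 134 to 141 did not overlap. It includes *Igfbp2*, for which the family was chosen and which went from 7.74 to 54.1 CPM per kb. *Igfbp4* rose from 16.6 to 28.6 and *Igfbp3* fell from 48.6 to 36.6 CPM per kb. The higher sum is thus no result apart from that of *Igfbp2*. *Igfbp2* made up 8.55% ± 0.791 of that sum in control and 39.4% ± 2.42 in *Neuid* KD. *Igfbp3* went from 53.7% ± 1.80 to 26.7% ± 1.31 and *Igfbp5* from 18.4% ± 0.853 to 11.7% ± 0.954, which for *Igfbp5* came with an overlapping level and a larger total. *Igfbp4* held 18.4% ± 1.10 in control and 20.8% ± 0.869 in *Neuid* KD. *Igfbp6* and *Igfbp7* stayed at or below 1.64% in every library.

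**Figure D3:**
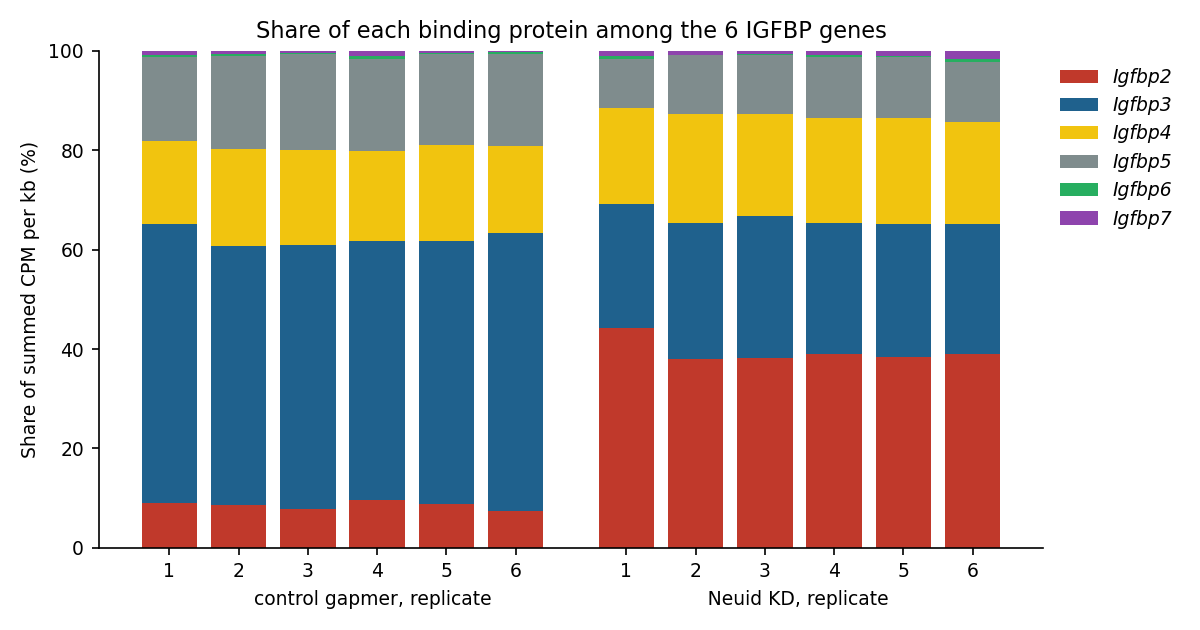
Share of each binding protein gene in the summed CPM per kb of the 6 *Igfbp* genes, in percent, 1 stacked bar per library with the 6 control replicates on the left and the 6 *Neuid* KD replicates on the right. The *Igfbp2* share is 7.42% to 9.53% in control and 37.9% to 44.3% in *Neuid* KD.

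The genes whose level was most like that of *Igfbp2* were sought among the 15205 tested genes that averaged at least 1 CPM. Over the log2 CPM of the 12 libraries, the highest Pearson r were those of *Jam2*, a junctional adhesion molecule (0.997), *Pla2g7*, the secreted platelet-activating factor acetylhydrolase (0.993), AW047730 (0.993), *Acsbg1*, an acyl-CoA synthetase (0.993), and *Fgfrl1*, an FGF receptor without a kinase domain (0.993). All 5 separated upward between the groups, with log2 fold changes of 1.25 to 2.54, and these r mostly reflect the step between the same 2 groups of libraries. On the same measure *Igfbp4* had an r of 0.967, *Igf1r* of 0.956, *Igfbp7* of 0.855 and *Igfbp3* of -0.963. Over the deviations from the group means, which leave that step out, the 5 closest genes were others: *Prokr2* (0.898), *Clba1* (0.877), *Ropn1l* (0.871), *Elof1* (0.869) and *Eda* (0.837). The groups overlapped in each of these 5. Among the members this measure gave 0.536 for *Igfbp7*, 0.091 for *Igfbp4*, 0.024 for *Igf1r* and -0.335 for *Igfbp3*.

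Around these 10 genes, 74 others of the axis were listed by role, and 73 were tested. By edgeR, 6 (8.22%) passed the threshold upward and 1 (1.37%) downward, where 2.44% and 0.792% of all tested genes did. Without the fold threshold, 13 (17.8%) were higher and 4 (5.48%) lower at an adjusted p under 0.05, beside 6.31% and 2.42% of all tested genes. Without *Neuid* KD replicate 1 the same counts of 6 and 1 stood beside 2.15% and 1.36% of all tested genes. The median log2 fold change of the 73 was 0.06, against -0.03 over all tested genes. The lists of proteases, inhibitors and surface partners held 4 of the 7 calls.

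Extracellular genes that set the supply of ligand held 2 of the calls. *Htra1*, a secreted serine protease that cleaves binding proteins, rose from 10.2 ± 1.24 to 29.8 ± 1.88 CPM (SD, n = 6 each; log2 fold change 1.53, SE 0.0747, adjusted p = 2e-10). *Stc1*, one of the stanniocalcins, which inhibit the binding protein protease PAPPA, fell from 8.40 ± 1.05 to 5.74 ± 0.903 CPM (log2 fold change -0.53, SE 0.113, adjusted p = 0.0048). The value of *Stc1* was -0.78 in the libraries of at least 100 CPM background and -0.20 in the others, and its call was lost without control replicate 2, at a value of -0.50. *Stc2* stood at -0.43 (adjusted p = 0.0016), below the fold threshold, with no overlap between the groups. *Pappa* and *Pappa2* themselves were at 0.21 and 0.05 (adjusted p = 0.86 and 0.96). The most abundant of the 8 genes of this list were *Ctsd*, the lysosomal protease cathepsin D, at 0.20 (adjusted p = 0.033), and *Adam9*, a membrane metalloprotease, at 0.11 (adjusted p = 0.41). Of other binding proteins, *Igfbpl1* was at 0.01 (adjusted p = 0.97) and *Igfals*, the acid-labile subunit, at -0.27 (adjusted p = 0.93), while *Igfbp1*, the neighbour of *Igfbp3*, had 0 to 11 reads a library and was not tested.

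Among 11 surface and matrix partners of the binding proteins and of *Igf2r*, 2 passed upward. *Ptprz1*, the receptor tyrosine phosphatase of glia and a surface partner of IGFBP2, rose from 428 ± 47.8 to 1100 ± 86.4 CPM (log2 fold change 1.36, SE 0.0736, adjusted p = 6.7e-10). *Itgb5*, an integrin subunit that pairs with ITGAV, rose from 13.7 ± 1.78 to 32.1 ± 3.25 CPM (log2 fold change 1.22, SE 0.0854, adjusted p = 2.2e-08). Both separated between the groups. *Itgav* was at 0.43 (adjusted p = 0.00012) and *Itgb1* at 0.23 (adjusted p = 0.019), below the fold threshold. *Lrp1*, an endocytic receptor named as a partner of IGFBP3, measured 492 ± 32.9 CPM before and 622 ± 111 CPM after knockdown (log2 fold change 0.34, adjusted p = 0.054), with 1 low *Neuid* KD library, replicate 1. Without it *Lrp1* was at 0.40 (adjusted p = 5.8e-06), still below the fold threshold.

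Downstream of the receptor, 0 of 11 genes of the insulin receptor arm, 1 of 20 of the PI3K-AKT-mTOR arm and 1 of 12 of the FOXO list passed upward, where 2.44% of all tested genes did. In the insulin receptor family and its adaptors, 11 genes, 0 passed by edgeR (3 at an unadjusted p under 0.05, 0 by DESeq2), with *Irs1* at -0.05 (adjusted p = 0.81), *Irs2* at 0.09 (adjusted p = 0.49) and *Insr* at -0.09 (adjusted p = 0.53). The adaptors *Gab1* and *Grb10* had log2 fold changes of 0.50 (adjusted p = 3.1e-06) and -0.31 (adjusted p = 0.0042). In the PI3K-AKT-mTOR arm, 1 of 20 passed: *Akt2*, a serine-threonine kinase of insulin signalling, rose from 23.6 ± 1.74 to 36.1 ± 3.15 CPM (log2 fold change 0.61, SE 0.0647, adjusted p = 3.8e-06). In the libraries of background under 100 CPM *Akt2* was at 0.50 and not called. The median of that list was 0.08, and *Gsk3b* and *Pik3r1*, its most abundant genes, were at 0.14 (adjusted p = 0.34) and -0.17 (adjusted p = 0.17). Without *Neuid* KD replicate 1, *Gsk3b* was at 0.16 (adjusted p = 0.049), *Pik3r1* at -0.16 (adjusted p = 0.056) and *Irs1* at -0.04 (adjusted p = 0.70).

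Of 12 FOXO factors and target genes, 1 passed: *Pdk4*, a kinase that shuts off pyruvate dehydrogenase, rose from 1.57 ± 0.309 to 3.26 ± 0.476 CPM (log2 fold change 1.05, SE 0.191, adjusted p = 0.0013), a call that was lost in the libraries of at least 100 CPM background, at 1.04. *Foxo3* was at 0.30 (adjusted p = 0.00098), *Sesn3* at 0.34 (adjusted p = 0.0014) and *Cdkn1b* at 0.02 (adjusted p = 0.86). Of 9 *Igf2* mRNA-binding proteins and imprinted growth genes, *Igf2bp3*, which binds the *Igf2* transcript, rose from 6.18 ± 0.899 to 11.9 ± 1.39 CPM (log2 fold change 0.96, SE 0.105, adjusted p = 5.9e-06). The imprinted genes *Peg3* and *Mest* were at 0.15 (adjusted p = 0.23) and -0.32 (adjusted p = 0.046). Without *Neuid* KD replicate 1, *Peg3* was at 0.16 (adjusted p = 0.024), *Mest* at -0.28 (adjusted p = 0.0044) and *Sesn3* at 0.34 (adjusted p = 0.00013), all below the fold threshold.

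**Figure D4:**
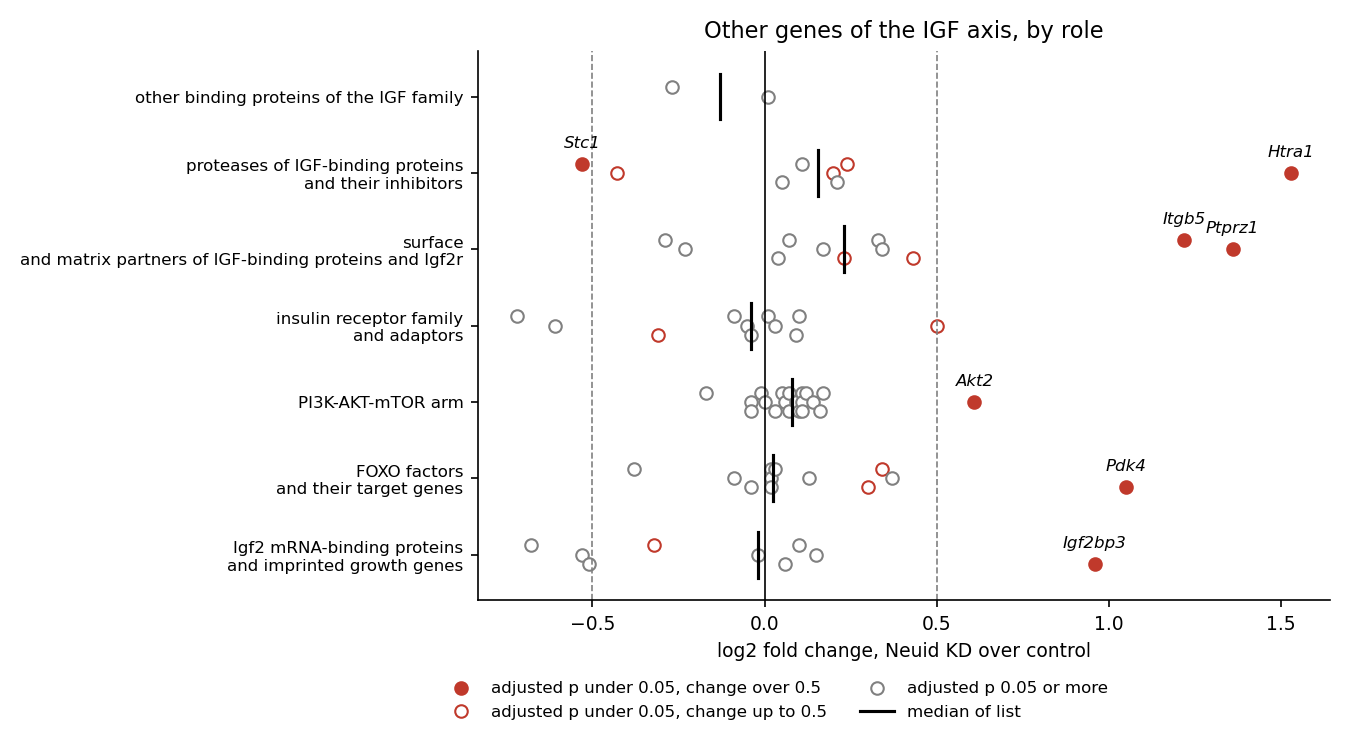
Log2 fold change of *Neuid* KD over control (horizontal axis) for the 73 tested genes of 7 lists, 1 circle per gene. Filled red circles passed both thresholds, and open red circles passed an adjusted p of 0.05 alone. Grey circles did not pass an adjusted p of 0.05, whatever their fold change. Black lines are list medians, and vertical offsets only separate the points. *Htra1* at 1.53 is the farthest to the right and most genes of the PI3K-AKT-mTOR arm lie near 0.

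Of the marker lists for cell types the cultures could hold, only those of astrocytes, radial glia and oligodendrocyte precursors had genes that passed upward. Of 14 astrocyte markers 13 were tested and 10 passed upward, among them *Gja1*, a gap junction connexin gene, at 4.83-fold and *Aqp4*, a water channel, at 4.31-fold, beside the 7.00-fold of *Igfbp2*. The summed level of the list was 1910 to 2390 CPM in control and 3480 to 4220 CPM in *Neuid* KD, a mean 1.80-fold higher. More than any other marker *Slc1a2* set that sum, at 1180 CPM in control and 1.55-fold higher in *Neuid* KD. Of 7 radial glia markers 4 passed upward and *Vim*, an intermediate filament of immature glia, fell (log2 fold change -0.74, adjusted p = 3.1e-09), with sums of 907 to 1030 and 1190 to 1360 CPM. *Hopx* of the same list was lower without overlap, at -0.19 (adjusted p = 0.013 by edgeR), below the fold threshold. Of 7 oligodendrocyte precursor markers 3 passed upward (100 to 121 and 253 to 297 CPM). Most of that sum was *Olig1*, which rose from 78.2 to 216 CPM, and *Olig2* rose from 10.5 to 33.6 CPM. The remaining call, *Lhfpl3*, had overlapping groups (log2 fold change 0.54). *Pdgfra* (0.44), *Cspg4* (0.16), *Sox10* (0.09) and *Gpr17* (-0.77) overlapped and were not called (adjusted p = 0.22, 0.63, 0.95 and 0.79 by edgeR). The rise was thus not shared by the whole list. Of 10 neuron markers 0 passed by edgeR (2 at an unadjusted p under 0.05, 0 by DESeq2), with sums of 6330 to 7400 and 6300 to 7450 CPM. *Nefm* of that list was higher without overlap, at 0.21 (adjusted p = 0.024 by edgeR), below the fold threshold. The part of glial RNA in the differences of the members was not tested, and in bulk libraries more cells of a type and more RNA per cell cannot be told apart.

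The sums of the other lists overlapped between the groups. Microglia markers summed to 14.6 to 22.8 CPM in control and 12.8 to 21.7 CPM in *Neuid* KD, with 6 of 11, *P2ry12* and *Tmem119* among them, under 1 CPM in every library. Endothelial markers summed to 6.89 to 23.5 and 7.07 to 23.3 CPM, with *Cldn5* and *Ly6c1* under 1 CPM throughout. The sums were 44.5 to 80.5 and 43.5 to 70.1 CPM for fibroblasts and mural cells, 4.80 to 13.8 and 3.96 to 15.4 CPM for choroid plexus and ependyma, 12.4 to 19.8 and 9.02 to 16.0 CPM for oligodendrocytes, and 188 to 221 and 175 to 206 CPM for inhibitory neurons. Of the oligodendrocyte list 3 of 6 genes were tested, and 1, the myelin gene *Mbp*, fell (log2 fold change -0.66, adjusted p = 0.00097 by edgeR). The defining markers of vessels and microglia, cells known to make *Igfbp7* and *Igf1*, were thus near 0 in both groups.

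**Figure D5:**
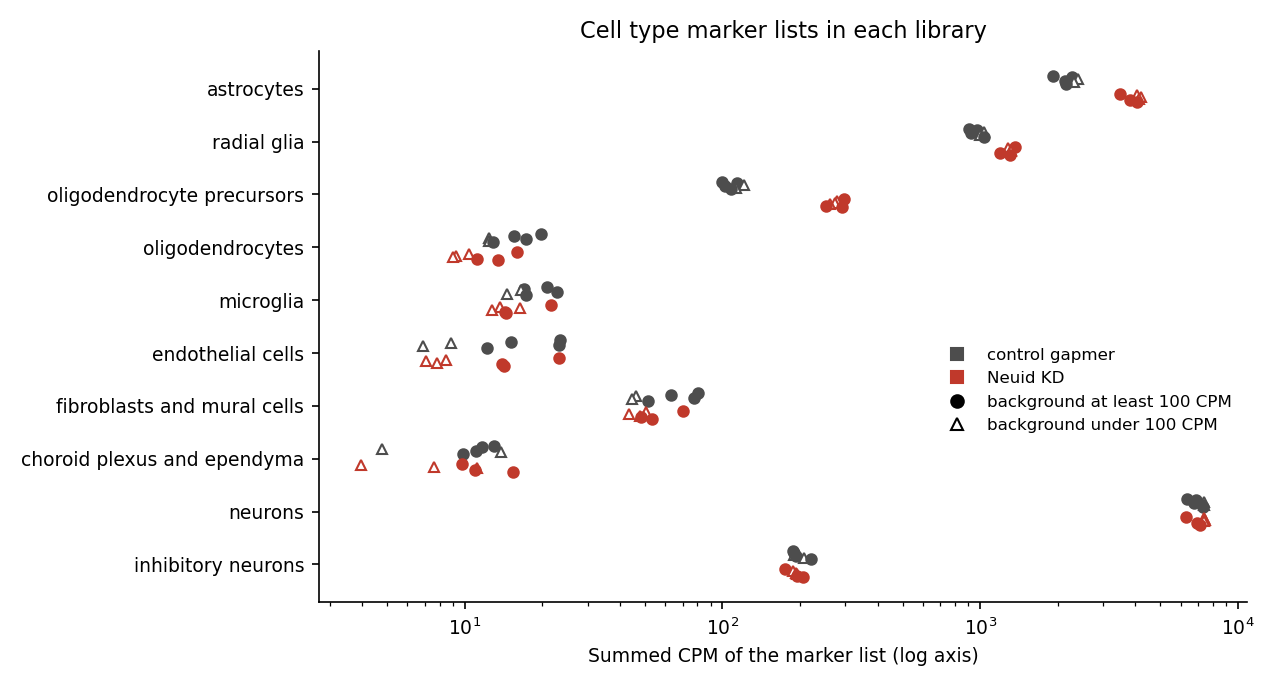
Summed CPM of 10 cell type marker lists on a log axis, 1 point per library, with control in grey and *Neuid* KD in red, circles for libraries with at least 100 CPM of background and triangles for those with less. The astrocyte, radial glia and oligodendrocyte precursor lists separate upward in *Neuid* KD (astrocytes from 1910 to 2390 CPM to 3480 to 4220 CPM), while the 2 neuron lists overlap. *Olig1* is the largest part of the precursor sum.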

How the data were processed

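Total RNA-seq was analysed in 12 libraries. Per the study's methods, libraries were made from 5 ng of RNA with a stranded pico-input kit and sequenced as single reads. Per the labels and methods, the authors aligned reads with STAR to mm10 (GRCm38) and deposited raw read counts per gene from featureCounts, without normalization. The strand setting and annotation release are not given in the sources used here. Of 55471 genes, 55230 matched GENCODE vM21 on GRCm38.

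Counts were filtered with filterByExpr, scaled by TMM and tested over all 19578 genes kept by the edgeR 4.0.16 quasi-likelihood test (R 4.3.3) with Benjamini-Hochberg adjustment. Calls were genes whose adjusted p fell below 0.05 and whose log2 fold change lay beyond 0.5 in either direction. CPM use TMM-scaled library sizes, and log2 CPM a prior count of 2. The fit was tested on simulated data. Alternatives were DESeq2 1.42.0, other scalings and filters, 1 RUVs factor, background as a covariate or in 2 classes, thinning, GC and length offsets, a replicate block and each library left out. The study used DESeq2 with RUVSeq.

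The members and all gene lists were chosen with earlier results of these data known. Named are all members, the targeted gene, each pathway gene called, the 2 most abundant genes of each list and the genes most like *Igfbp2*. Other genes were named after their values were seen: *S100b*, *Rgcc*, *Airn*, *Polr2b*, *Stc2*, *Pappa*, *Pappa2*, *Itgav*, *Itgb1*, *Insr*, *Gab1*, *Grb10*, *Foxo3*, *Igfbp1* and the markers. Floors for a count of 0 use 3 reads per library and cover counting error only, since PCR reads are not independent molecules.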

Additional observations from a re-analysis of the deposited data

Results flagged for a closer look

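In groups of 6 libraries, a library was listed where its gap to the nearest other, as a share of the group's range, exceeded Dixon's critical value, which chance gives in about 1 of 20 groups. Of 62 groups of 31 genes 11 were listed, 10 of them for *Neuid* KD replicate 1, the library with the fewest reads. In that library *Igfbp5* was at 81.1 CPM (98.2 to 104 CPM in the other 5), *Igf1r* at 56.8 CPM (75.7 to 86.4), and *Igf2r* at 91.5 CPM (117 to 132). Of the other genes of the axis, *Lrp1* was at 396 CPM (647 to 682), *Irs1* at 74.9 CPM (92.6 to 99.5), *Pik3r1* at 224 CPM (274 to 296), *Gsk3b* at 380.0 CPM (481 to 525), *Sesn3* at 100 CPM (120.0 to 122), *Mest* at 42.1 CPM (61.0 to 70.6) and *Peg3* at 501 CPM (619 to 666). *Itgb5* was highest in *Neuid* KD replicate 6, at 38.6 CPM (29.9 to 31.8).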

How the results depend on the processing

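*Neuid* kept its call in 25 alternatives, with log2 fold changes from -1.93 to -1.74. So did *Igfbp2* (2.73 to 2.85), *Igfbp4* (0.68 to 0.81) and *Igf1r* (1.03 to 1.20), while *Igfbp7* lost it in 8 of 25. The members called upward numbered 3 to 4 in 27 alternatives. Downward there was 1 with a fold threshold of 0.3 or with none (*Igfbp3*), and 0 to 1 with each library left out, the 1 being *Igf1* without *Neuid* KD replicate 1. Pathway genes called upward numbered 3 with GC and length offsets (*Akt2*, *Pdk4* and *Igf2bp3* lost) and 13 without a fold threshold, and 6 to 7 with each library left out (*Gab1* added without control replicate 2 or 3). Downward they numbered 0 with the offsets, 4 with a threshold of 0.3 or none, and 0 to 1 with each library left out (0 without control replicate 2). The log2 fold change of *Igf2r*, near 0, changed sign under upper-quartile scaling (-0.04), 1 RUVs factor (-0.01 in edgeR, -0.03 in DESeq2), the libraries of at least 100 CPM background (-0.05), thinning (-0.03) and the offsets (-0.09), and ran from -0.02 to 0.04 with each library left out. The cause was not tested. Over all genes, leaving out *Neuid* KD replicate 1 gave 426 calls upward and 269 downward, and the offsets left 223 calls upward and 45 downward, against 477 and 155, and upper-quartile scaling changed the upward share from 75.5% to 64.1%, and moved the median of all genes from -0.03 to -0.09.

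Same-numbered libraries deviated from their group means with correlations of -0.637 to 0.774. The values were 0.774, 0.751 and 0.0037 for numbers 1, 3 and 6, whose libraries shared a background class. They were -0.454, -0.637 and -0.552 for numbers 2, 4 and 5, whose libraries differed in it. These correlations carry background as well, so they cannot decide whether the numbers pair the libraries. With the replicate block, 4 members were called upward and 0 downward, 7 pathway genes upward and 1 downward, *Neuid* was at -1.82, and the interaction with background passed in 0 members.

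Depth limits *Igf2*, *Igfbp6* and *Igfbp7*, which had at most 51 reads in any library.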
